A study of Drosophila melanogaster with 42 samples.

Results

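Heads of male offspring whose fathers were labelled dATF-2KO were compared with heads of male offspring of w1118 fathers, using only crosses in which the father had not been restrained. The comparison joined the 5 libraries labelled dATF-2KO with the 5 libraries labelled w1118 by gene symbol, which is 10 of the 42 libraries of the series. Fathers of the w1118 group carried the white-eyed w1118 chromosome, and fathers of the other group carried w1118 together with the dATF-2KO allele, a targeted deletion that the study describes as removing the whole gene. That line had been backcrossed repeatedly to w1118. All mothers were w1118, so a son received from his father a Y chromosome and a single copy of each autosome, and received his X chromosome from his w1118 mother. Unrestrained fathers had been kept loose without food while other males were restrained. The restrained fathers, whose sons are used below for comparison, were held between sponge plugs in 3 sessions of 10 hours each. Each library was a pool of 50 sons aged 5 to 6 days in the sample labels and 6 to 7 days in the series description, reared at 25°C. Whether pools came from separate crosses is not stated. Expression was given as FPKM, fragments per kilobase of transcript scaled to the number of mapped fragments. The authors scaled the table of each father's genotype separately, so genotype and table cannot be told apart, and no p-value was computed between them.

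dATF-2, listed as Atf-2, encodes a stress-activated transcription factor of the CREB and ATF family that is phosphorylated by the kinase p38 and helps to keep heterochromatin silent in Drosophila. A fly head holds mostly brain, retina, muscle and a layer of fat body, the tissue that makes storage proteins, immune peptides and many detoxifying enzymes. The question this comparison addresses is how the sons' heads differed by the labelled genotype of unrestrained fathers, the baseline for any effect of restraint. Sons of deletion fathers inherit the deletion themselves, so the father's genotype and the sons' own genotype cannot be told apart.

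The shift of all genes was examined first. Among the 9946 of 15061 genes whose mean over the 10 libraries reached 1 FPKM, the median difference of log2(FPKM + 0.5), dATF-2KO minus w1118, was -0.0046, a factor of 0.997. This shift was subtracted from every difference, and the quartiles then lay at -0.08 and 0.08. All differences below are log2 differences of FPKM + 0.5 after this shift, a scale that understates the change of low genes. A gene passed when the 5 libraries labelled dATF-2KO lay wholly above or wholly below the 5 of w1118 and the group means differed by at least 2-fold, or, as a wider rule, by the 1.4-fold that the study used. At any size of difference, 1044 genes lay wholly above (10.5%) and 659 wholly below (6.63%), so absence of overlap alone was common and small differences of this kind are not described further except for gene groups. Within a table, between restrained and unrestrained fathers, the same shares were 3.28% and 2.06% for w1118 and 1.53% and 0.752% for dATF-2KO. Relative depth, read from the size of a single fragment among low genes, was 0.986 to 1.06 in the w1118 libraries and 0.807 to 0.973 in those labelled dATF-2KO, set to 1 in w1118 replicate 1. The part of depth in the results was not tested.

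The targeted gene did not separate the groups. Atf-2, on 2R of the dm3 genome from 20757590 to 20776138, had 71.7, 74.0, 72.3, 74.7 and 74.6 FPKM in the 5 w1118 libraries. In the libraries labelled dATF-2KO it had 70.4, 70.9, 69.9, 75 and 71.8 FPKM. The locus holds 5 overlapping genes in the tables, so reads may have been split among them. The groups overlapped and the difference was -0.03, although a son of a deletion father carries a single copy of the gene. The genotype of these fathers therefore rests on the labels. In other parts of the body after restraint, Atf-2 had 11.4 ± 0.846 FPKM (SD, n = 5) in libraries labelled dATF-2KO and 22.5 FPKM in the authors' mean for w1118. The study reported many more body genes changed by restraint of w1118 fathers than of dATF-2KO fathers. In this and every body comparison below, genotype and the response to restraint therefore cannot be told apart. The w gene, which makes the transporter for eye pigment, was at 0.0868 to 0.116 FPKM with w1118 fathers and 0.0859 to 0.145 FPKM with fathers labelled dATF-2KO. The head markers ninaE, the main rhodopsin, and repo, a glial transcription factor, fitted the labelled tissue. The lowest ninaE level was 19400 FPKM and repo lay between 28.9 and 30.7 FPKM over all 10 libraries.

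With the 2-fold rule, 15 genes passed as higher in heads labelled dATF-2KO (0.151% of the 9946 genes) and 8 as lower (0.0804%). With the 1.4-fold rule, 70 passed as higher (0.704%) and 42 as lower (0.422%). The 2-fold genes just inside and just outside the limit were CG42596 (1.03) and CR34335 (0.99) on the higher side. On the lower side they were CR40677 (-1.02) and snoRNA:Tudor-SN-a (-0.95). For 1.4-fold the genes at the limit were cola (0.49) and CG16885 (0.48) above, and CG10396 (-0.49) and RNaseMRP:RNA (-0.48) below. With a filter at a mean of 5 FPKM, 6 and 38 genes were higher by the 2 rules. The number at least 2-fold lower was 14 without replicate 1 of either group, 16 without w1118 replicate 2 and 15 without dATF-2KO replicate 5. Small RNA genes made up 358 of the genes tested and supplied 2 of the 70 and 11 of the 42. Because RNA had been selected by poly(A) tail, their levels are uncertain and they are described apart. Restraint of the father, by the same 1.4-fold rule, gave 9 higher and 5 lower genes with w1118 fathers (0.0907% and 0.0504%), and 2 higher and 2 lower with fathers labelled dATF-2KO (0.0201% each). Those comparisons share the unrestrained libraries described here.

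All 14 genes other than small RNAs that passed as 2-fold higher lay on chromosome 2, the chromosome that carries Atf-2, where 38.9% of the 9588 such genes kept are found. They were Cyp6a14, lmgB, Tep4, Cyp6d2, squ, CG42876, CG41257, Prosalpha6T, Cyp6a2, Cyp4p2, CG42260, sut2, CR30267 and CG42596. In restrained heads, a pair of groups with no library in common with these, 13 such genes passed the same rule and all 13 again lay on chromosome 2. Of the 15 genes passing here, 10 passed there too (background 0.141%) and all 15 had the same sign.

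**Figure D1:**
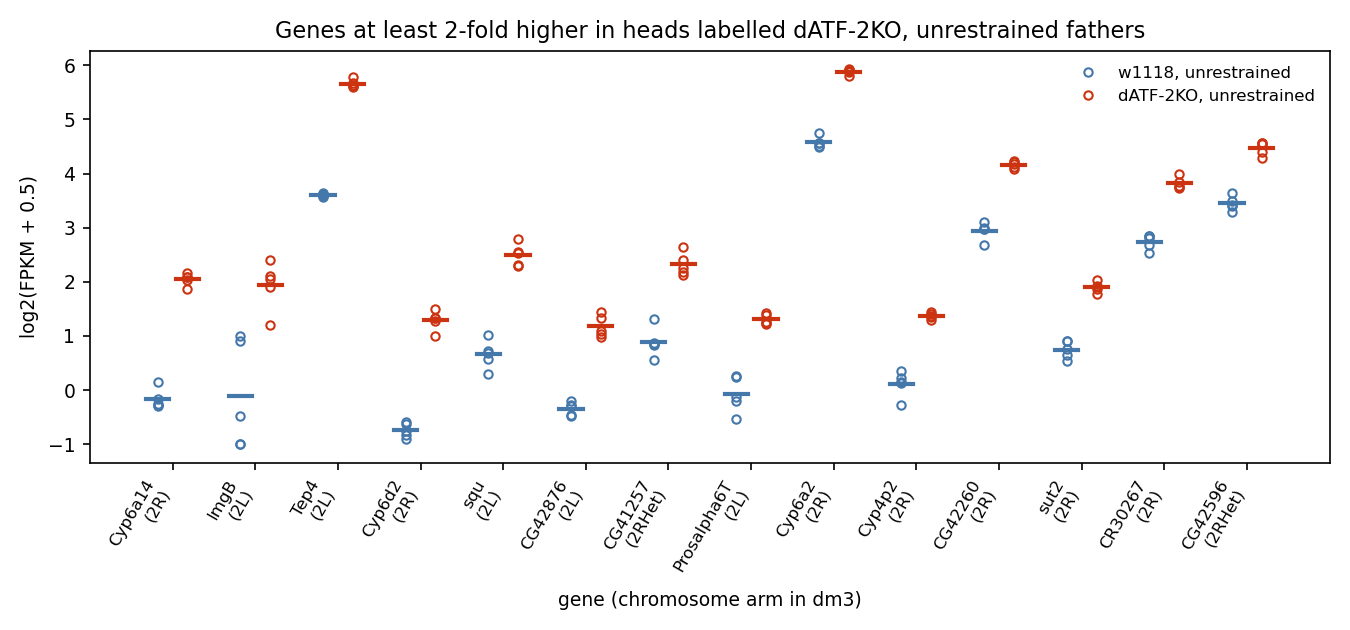
Each circle is 1 library and each bar the mean of 5, as log2(FPKM + 0.5), for the 14 genes other than small RNAs that were at least 2-fold higher without overlap in heads labelled dATF-2KO (red) than with w1118 fathers (blue). Genes are ordered by the size of the difference, from 2.23 in Cyp6a14 to 1.03 in CG42596, and the arm of each is given in brackets.

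Among these genes, Tep4 combined a large difference with the least scatter. Tep4 encodes a thioester-containing protein, a secreted relative of complement that acts in insect immunity, and lies on 2L from 19548507 to 19556451. It had 11.5, 11.9, 11.7, 12.0 and 11.3 FPKM with w1118 fathers. With fathers labelled dATF-2KO it had 48.4, 54.3, 48.9, 50.3 and 47.7 FPKM. Both groups were narrow and far apart, with a log2 difference of 2.05 (4.15-fold). In restrained heads Tep4 had 11.1 ± 0.368 and 46.6 ± 2.59 FPKM (SD, n = 5 each). In other parts of the body after restraint it had 21.6 ± 1.83 FPKM in libraries labelled dATF-2KO and 9.05 FPKM in the authors' mean for w1118. Of 23 immune recognition genes kept, Tep4 alone passed the 1.4-fold rule, and the median of the list was -0.01, or 0.03 when libraries were scaled to a common sum.

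Cytochrome P450 enzymes, which oxidize hormones, fatty acids and foreign chemicals, supplied 4 of the 14, of which all but Cyp6a2 had a w1118 mean under 1 FPKM. Cyp6a2, a P450 known from insecticide-resistant strains, had 23.2, 22.1, 26.4, 23.3 and 22.2 FPKM with w1118 fathers and 60.2, 58.5, 59.7, 58.8 and 55.1 FPKM with fathers labelled dATF-2KO. It was the most abundant of the 4, and its difference was 1.31. Cyp6a14 went from 0.315, 0.328, 0.391, 0.612 and 0.332 FPKM to 3.99, 3.62, 3.75, 3.78 and 3.16 FPKM, a difference of 2.23. Cyp6d2 was close to absent with w1118 fathers. It had 0.0320, 0.15, 0.163, 0.0623 and 0.0912 FPKM there, against 2.02, 2.03, 1.93, 2.34 and 1.51 FPKM (difference 2.04). Cyp4p2 had 0.664, 0.593, 0.772, 0.614 and 0.330 FPKM against 2.10, 2.23, 2.14, 2.05 and 1.96 FPKM (difference 1.26). None of these sets of libraries overlapped.

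The P450 family as a whole did not share this. Of 65 P450 genes kept, 4 passed as higher by the 1.4-fold rule, against 0.704% of all genes, and 0 as lower, and the median of the family was -0.02, which became 0.01 when libraries were scaled to a common sum. The locus given for Cyp6a2 holds 2 overlapping genes and that for Cyp4p2 holds 4, so reads may have been split among them. The 4 loci lie apart on 2R. Cyp6a2 is placed from 2647220 to 2686446, Cyp6a14 from 4451799 to 4453481, Cyp4p2 from 5115290 to 5134754 and Cyp6d2 from 18540078 to 18542032. All 4 genes passed again in restrained heads, with differences of 1.12, 2.20, 1.16 and 1.96 in that order. In other parts of the body after restraint the same 4 genes were higher by 0.87, 1.27, 2.78 and 1.38 than in the authors' mean for w1118. There, 6.05% of 12338 genes were at least 2-fold higher and 1.3% at least 2-fold lower, without regard to overlap. These body values and shares hold the response to restraint together with the genotype of the father. Among 38 glutathione S-transferase and UDP-glycosyltransferase genes, the other large detoxifying families, GstE4 alone passed. Its level was 1.08 ± 0.344 and 1.83 ± 0.445 FPKM, a difference of 0.57, and in restrained heads the groups overlapped.

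Genes of the germ line and testis were among the 14, at low levels. squ (squash), a factor of the piRNA pathway that silences transposons in the germ line, had 0.724, 1.53, 0.982, 1.11 and 1.15 FPKM with w1118 fathers. With fathers labelled dATF-2KO it had 4.40, 5.36, 6.42, 4.47 and 5.30 FPKM, a difference of 1.84 with no overlap. Its locus on 2L, from 16680054 to 16699926, holds 8 overlapping genes in the tables, so reads may have been split among them. Prosalpha6T, the testis paralog of a proteasome subunit, went from 0.470 ± 0.219 to 1.98 ± 0.165 FPKM (SD, n = 5), a difference of 1.39. A separate list of testis markers holds neither gene. Of its 11 members kept, 0 passed and their median was -0.75, with summed levels of 14.6 to 57.4 FPKM with w1118 fathers and 10.9 to 17.8 FPKM with fathers labelled dATF-2KO.

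The remaining higher genes had various functions. CG42596, named dpr21 in RefSeq and a member of the dpr family of neuronal surface proteins with immunoglobulin domains, lies on the 2RHet scaffold. It had 10.2, 10.8, 11.9, 10.1 and 9.22 FPKM against 20.5, 22.9, 23.1, 23.2 and 19.0 FPKM. The groups were separate, with a difference of 1.03. CG42260 had 8.12, 7.41, 5.87, 7.34 and 7.47 FPKM against 16.9, 16.5, 18.1, 18.3 and 17.5 FPKM, a difference of 1.23. CR30267 (1.08), an antisense RNA in RefSeq, shares the locus of CG42260 on 2R from 18628504 to 18685794, and the source of reads from the pair cannot be told apart. The sugar transporter gene sut2 went from 1.19 ± 0.189 to 3.24 ± 0.242 FPKM (1.16). CG41257, a long noncoding RNA in RefSeq, went from 1.37 ± 0.370 to 4.54 ± 0.755 FPKM (1.44), and CG42876 from 0.290 ± 0.0641 to 1.78 ± 0.323 FPKM (1.53). The gene lmgB, whose locus holds 3 genes, was the least steady of the set. It was listed at 0 in 2 w1118 libraries and at 1.38, 1.5 and 0.215 FPKM in the others, against 1.81, 3.66, 4.82, 3.25 and 3.82 FPKM, and in restrained heads its groups overlapped.

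Of the 14 genes, 9 had a mean under 5 FPKM with w1118 fathers. In 6 of them, Cyp6a14, Cyp6d2, Cyp4p2, CG42876, Prosalpha6T and lmgB, that mean was under 1 FPKM. These 6 came through the filter by their level with fathers labelled dATF-2KO, so they had to differ, and the count of 14 supports nothing by itself. At least 1 FPKM in both groups was reached by 8 of the 14. The same limit holds for 12 of the 70 genes higher at 1.4-fold and 5 of the 42 lower, in which 1 group mean was under 1 FPKM. Genes shared loci widely in these tables, and 50 of the 99 genes other than small RNAs that passed at 1.4-fold were alone at theirs.

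The place of the passing genes in the genome was compared between the unrestrained and the restrained pair of groups. With unrestrained fathers, and small RNAs left out, the 1.4-fold rule passed 34 higher genes on chromosome 2, 15 on chromosome 3 and 19 on X, scaffolds included. These were 0.912%, 0.358% and 1.21% of the genes kept on each. With restrained fathers the same rule passed 28, 3 and 1. On arm X alone, of 19 higher and 2 lower genes 0 passed again in restrained heads. On 2R, 15 of 32 passed again, on 2L 5 of 16, on 3L 3 of 8 and on 3R 5 of 18. No such gene passed on chromosome 4, with 88 kept. On heterochromatic and unplaced scaffolds alone, 2 higher and 2 lower genes passed of 54 kept (7.41%, against 1.03% of all such genes). Of these, 3 passed again in restrained heads. The 19 higher genes on X had a median difference of 0.58 with unrestrained and 0.30 with restrained fathers, and 11 of them still did not overlap with restrained fathers. As the genes were chosen for their size with unrestrained fathers, smaller values with restrained fathers come with that choice, and nothing is read from them. Without w1118 replicate 3, 14 higher genes were on X, 31 on chromosome 2 and 14 on chromosome 3.

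**Figure D2:**
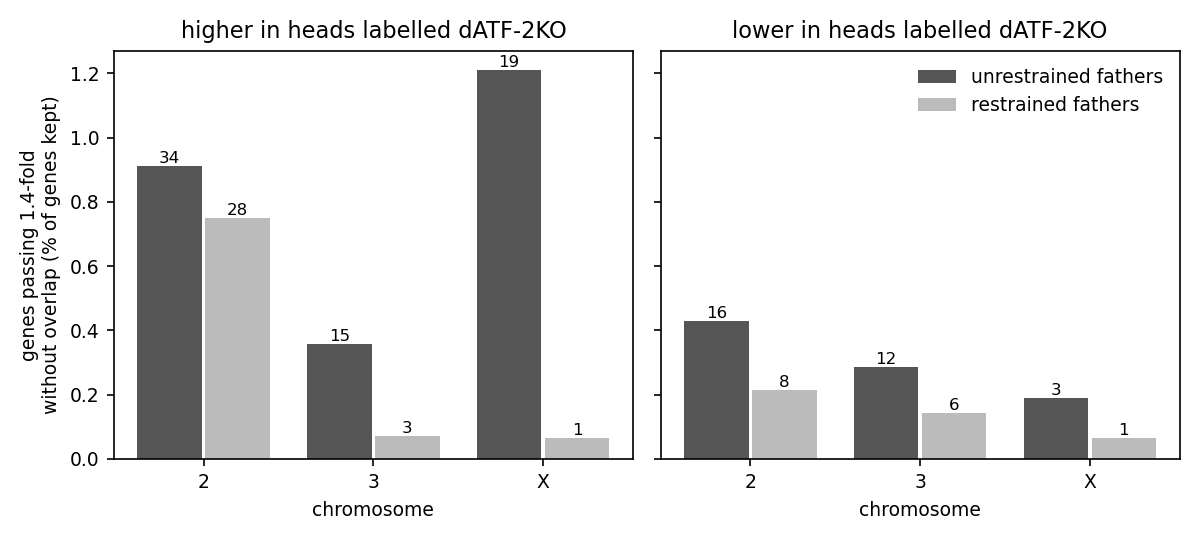
Bars give the percentage of genes kept on chromosomes 2, 3 and X, small RNAs left out, that passed the 1.4-fold rule without overlap as higher (left) or lower (right) in heads labelled dATF-2KO, with unrestrained (dark) and restrained (light) fathers, and the number on each bar is the count of genes. Chromosome 2 had 34 higher genes with unrestrained and 28 with restrained fathers, and chromosome X had 19 and 1.

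**Figure D3:**
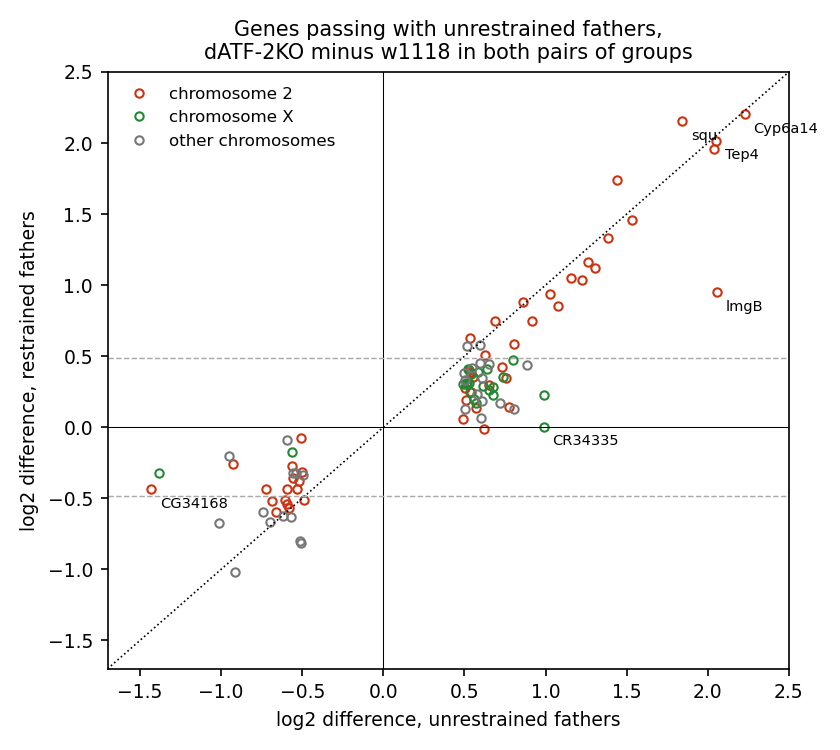
Each circle is 1 of the 99 genes other than small RNAs that passed the 1.4-fold rule with unrestrained fathers. The x axis gives its log2 difference, dATF-2KO minus w1118, with unrestrained fathers and the y axis with restrained fathers, with the dotted line at equality and the dashed lines at 1.4-fold. The genes past 2-fold on chromosome 2 (red) lie near the dotted line except lmgB and CG34168, and the X genes (green) lie between 0 and the upper dashed line or above the lower one.

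On 2R the passing genes were placed by their distance from Atf-2. Within 1 Mb of Atf-2, 2 genes passed as higher and 1 as lower of 179 kept (1.68%), small RNAs left out. Between 1 and 3 Mb, 5 passed as higher and 2 as lower of 193 (3.63%), and all 7 passed again in restrained heads. Among these 7 are CG42260 and CR30267, which share a locus, so they may not be separate signals. Beyond 3 Mb, 12 and 10 passed of 1622 (1.36%), and 6 of these 22 passed again. The share over all such genes in the tables was 1.03%.

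Closest to Atf-2 among the passing genes were CG9380, CG42383 and Fmo-1. The locus of CG9380 holds 5 overlapping genes and that of CG42383 holds 2, so reads may have been split among them. CG9380, 0.340 Mb distal, had 1.77, 1.74, 1.34, 1.66 and 1.90 FPKM against 3.32, 4.01, 3.32, 3.53 and 3.81 FPKM (difference 0.92). Fmo-1, a flavin-containing monooxygenase gene 0.916 Mb proximal, had 11.3, 11.9, 11.1, 12.1 and 11.3 FPKM against 7.56, 7.33, 6.77, 6.94 and 6.85 FPKM (difference -0.66). Neither pair of groups overlapped, also not in restrained heads (0.75 and -0.60). CG42383 went from 0.896 ± 0.175 to 1.58 ± 0.510 FPKM, a difference of 0.56.

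By number, most passing genes in a stretch of 1 Mb lay from 18 to 19 Mb of 2R, where 6 of 110 genes passed and all 6 passed again in restrained heads. By share, 3 of 26 from 14 to 15 Mb of 2L and 3 of 48 from 1 to 2 Mb of 2R were more. The stretch from 18 to 19 Mb of 2R holds Cyp6d2 and the pair CG42260 and CR30267 at a shared locus, given above. It also holds CG13510, CG30273 and CG30269, which were singled out after their values were seen. CG13510 was at 10.0, 10.9, 11.0, 10.8 and 9.01 FPKM with w1118 fathers and at 18.4, 16.8, 16.1, 15.4 and 18 FPKM with fathers labelled dATF-2KO (difference 0.69). Its neighbours CG30273 and CG30269 differed in the opposite direction. CG30273 was at 18.7, 19.3, 17.3, 19.2 and 16.9 FPKM against 11.8, 12.3, 11.0, 11.4 and 12.5 FPKM, a difference of -0.60. CG30269 went from 21.0 to 13.7 FPKM in the means (-0.59), and the groups were separate for both. Higher and lower genes thus stood side by side there, 2.11 to 2.23 Mb from Atf-2.

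**Figure D4:**
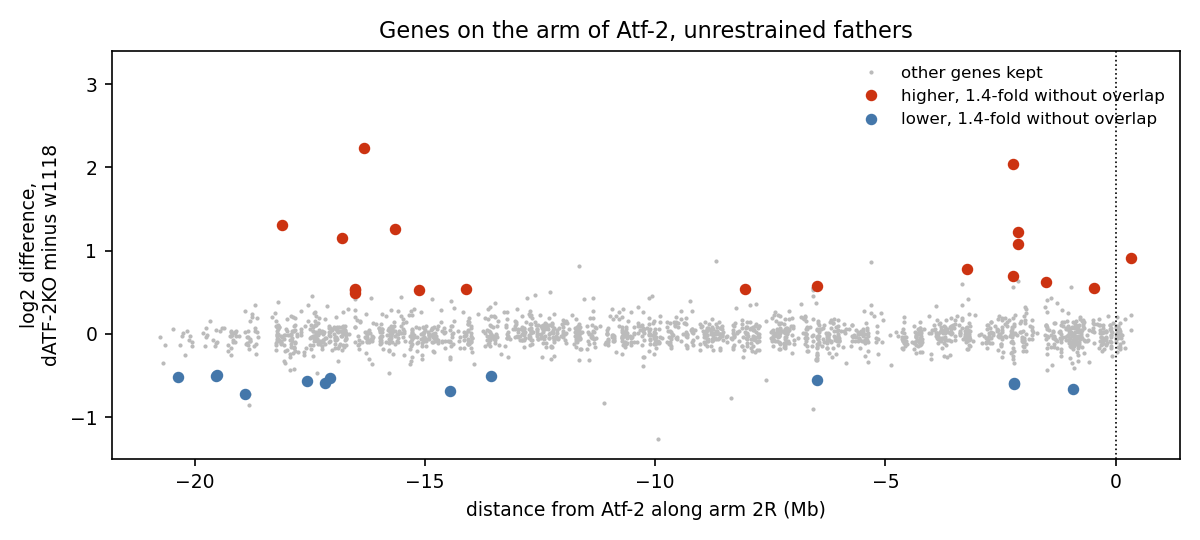
Each point is a gene kept on 2R, small RNAs left out, with its distance from Atf-2 in Mb on the x axis (negative values toward the centromere) and its log2 difference, dATF-2KO minus w1118, on the y axis. Genes passing 1.4-fold without overlap are red (higher, 19) or blue (lower, 13), and 7 of them lie between 1 and 3 Mb from Atf-2.

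Neuronal genes stood slightly higher in heads labelled dATF-2KO. Of 23 neuron markers kept, 15 lay wholly above w1118 at any size of difference (65.2%, against 10.5% of all genes) and 1 wholly below. The median difference was small, 0.15, and was 0.14 to 0.19 under the other scalings. By the 1.4-fold rule fne alone passed. Of 36 photoreceptor markers, 5 lay wholly above (13.9%) and 10 wholly below (27.8%, against 6.63% of all genes). Their median of -0.02 turned to 0.02 when libraries were scaled to a common sum and 0.01 with quantile normalization. Of 11 glial markers, 1 lay wholly above and 1 wholly below (9.09% each). Their median of -0.03 turned to 0.0087 and 0.0036 under the same scalings. A larger share of neuronal tissue in the heads and more RNA per neuron cannot be told apart in bulk samples.

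fne (found in neurons) encodes an ELAV-family protein that binds RNA, and lies on X from 12811510 to 12844450. It had 43.7, 43.0, 34.8, 41.5 and 43.2 FPKM with w1118 fathers and 71.4, 73.6, 70.2, 63.3 and 64.8 FPKM with fathers labelled dATF-2KO, a difference of 0.74. In restrained heads it had 59.3 ± 3.82 and 76.1 ± 4.21 FPKM (SD, n = 5), a difference of 0.35 that left the groups separate. The level with unrestrained w1118 fathers was thus the lowest of the 4 groups. Octbeta2R, a receptor for the insect stress amine octopamine, had 9.77, 8.41, 8.98, 10.5 and 9.40 FPKM against 15.5, 16.1, 15.8, 13.0 and 14.9 FPKM (difference 0.65). No other of the 12 serotonin, octopamine and dopamine receptor genes passed, and the median of that list was 0.07.

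The next 4 genes, mei-P26, futsch, scrt and pros, were singled out after their values were seen and are described singly. The translational regulator mei-P26, a TRIM-NHL protein on X, had 18.1, 17.4, 14.2, 17 and 18.3 FPKM against 32.1, 31.8, 29.7, 27.2 and 28.4 FPKM (difference 0.80). futsch, a microtubule-associated protein of axons on X, had 42.5, 39.9, 32.8, 42.1 and 43.4 FPKM against 56.0, 54.7, 56.9, 58.5 and 54.6 FPKM (0.49). The zinc finger factor scrt went from 25.0 to 38.3 FPKM (0.61) and the homeodomain factor pros, which acts in neural precursors, from 31.2 to 44.1 FPKM (0.50). In each of these, w1118 replicate 3 was the lowest library.

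Among the other X genes, the calcineurin subunit CanA-14F went from 33.0 to 46.9 FPKM (0.51) and the RNA-binding protein Imp from 7.17 to 10.5 FPKM (0.53). The largest by level were noncoding RNAs. CR34335 on X had 8355, 7767, 3384, 6645 and 8151 FPKM against 13907, 13733, 12666, 11781 and 12747 FPKM (0.99), and in restrained heads the group means were 15250 and 15371 FPKM in turn and overlapped (0.00). The long noncoding RNA noe on 3L had 1390, 1317, 956, 1234 and 1382 FPKM against 2279, 2361, 2294, 2129 and 2395 FPKM (0.88).

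Replicate 3 of w1118 stood apart in these genes. Its mean log2(FPKM + 0.5) over the neuron markers was 5.96, against 6.06 to 6.09 in the other w1118 libraries and 6.18 to 6.24 in those labelled dATF-2KO. Without it the groups stayed apart for fne (0.68), mei-P26 (0.74), noe (0.79), CR34335 (0.75), scrt (0.55), futsch (0.42), CanA-14F (0.45), Imp (0.46) and pros (0.46), of which the last 4 then fell short of 1.4-fold. With that library left out the neuron median was 0.13, with 15 of 23 again wholly above.

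**Figure D5:**
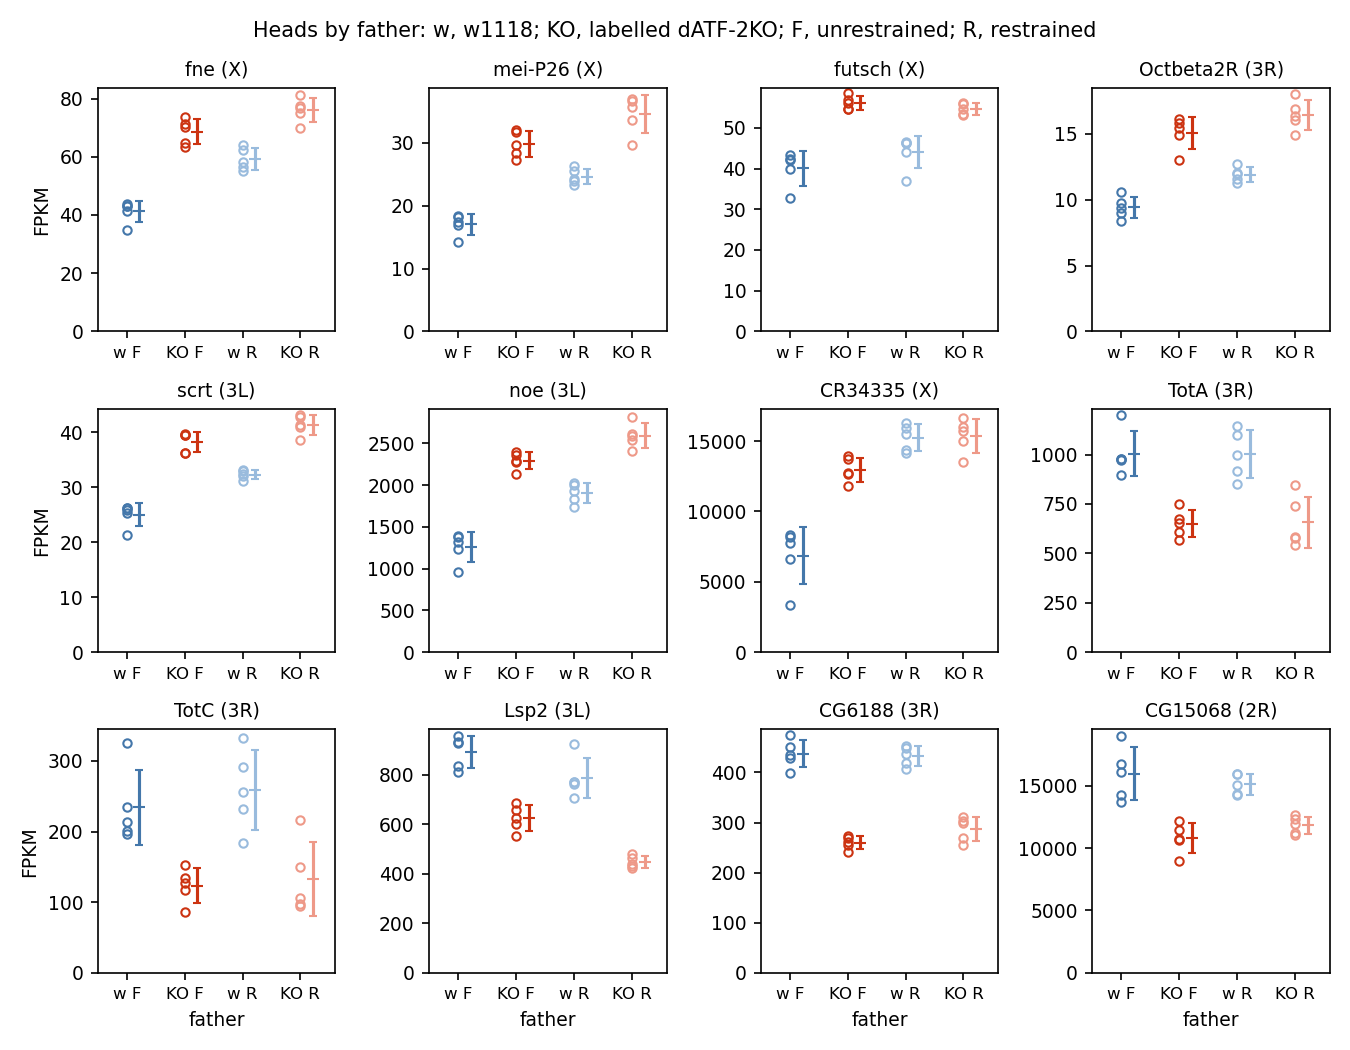
Each panel gives 1 gene in FPKM from 0 for the 5 libraries of each group (circles) with the mean and SD beside them, from left to right w1118 and dATF-2KO with unrestrained fathers (w F, KO F), then with restrained fathers (w R, KO R). The genes in the panels from fne to CR34335 were lowest with unrestrained w1118 fathers, and TotA, TotC, Lsp2, CG6188 and CG15068 were lower with fathers labelled dATF-2KO in both pairs of groups, without overlap except for TotC with restrained fathers.

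Turandot peptides, secreted by fat body under stress, had 2 members lower in heads labelled dATF-2KO. The study names TotA alone of them, for its response to stress signalling. In whole dATF-2KO mutant flies, not their sons, it reported a tendency to higher TotA without clear significance. Of 4 Turandot genes kept, TotA and TotC passed the 1.4-fold rule as lower, against 0.422% of all genes, and 0 passed as higher, with a median of -0.58 that lay between -0.58 and -0.54 under the other scalings. TotA on 3R had 977, 1199, 978, 896 and 973 FPKM with w1118 fathers. With fathers labelled dATF-2KO it had 748, 566, 674, 655 and 610 FPKM, a difference of -0.62 with no overlap. TotC had 213, 325, 235, 197 and 201 FPKM against 152, 85.5, 134, 118 and 127 FPKM (-0.92). In restrained heads TotA differed by -0.63 and TotC by -1.02, the latter with overlap.

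The signalling genes upstream of these peptides did not pass. upd3, the cytokine of the JAK-STAT pathway named by the study, was below the filter at 0.138 ± 0.0389 and 0.108 ± 0.0451 FPKM. Of 5 JAK-STAT genes kept, 0 passed, with a median of 0.04. Mekk1, a kinase upstream of p38, had 16.6, 16.7, 14.8, 16.9 and 17.9 FPKM against 16.7, 17, 17.7, 18 and 17.2 FPKM and overlapped. Of 20 genes of the dATF-2 and p38 pathway and 25 heterochromatin genes kept, 0 passed, with medians of 0.03 and 0.02. Of 17 heat shock genes 0 passed, with a median of 0.01.

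Fat body products differed in both directions. Lsp2, a storage protein of the larval serum that adult fat body also makes, had 925, 810, 833, 930 and 955 FPKM against 658, 551, 684, 625 and 600 FPKM (difference -0.51). In restrained heads the difference was -0.81 without overlap. Obp99b, an odorant-binding protein made in large amounts by the fat body of the head, had 542, 574, 598, 623 and 599 FPKM against 921, 879, 922, 857 and 841 FPKM (0.60), and 0.58 in restrained heads. These were the only 2 of 15 head fat body markers kept that passed, and the summed level of that list overlapped, at 7036 to 7387 FPKM with w1118 fathers and 6814 to 7394 FPKM with fathers labelled dATF-2KO.

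CG6188, named Gnmt in RefSeq, encodes glycine N-methyltransferase, which uses up S-adenosylmethionine to methylate glycine. It had 430, 451, 474, 400 and 434 FPKM against 272, 262, 241, 270 and 256 FPKM, a difference of -0.74, and -0.60 in restrained heads. No libraries overlapped in either pair. CG43630 (-0.70) shares its locus on 3R, so the reads of the pair cannot be told apart. Of 24 genes of serine, glycine and one-carbon metabolism kept, CG6188 alone passed, and 8 lay wholly below at any size of difference (33.3%, against 6.63% of all genes) and 1 wholly above (4.17%, against 10.5%), with a median of -0.07. Of 17 glycolysis genes kept, 0 passed, but 6 lay wholly below (35.3%) and 1 wholly above (5.88%). Their median was -0.04, or -0.0056 when libraries were scaled to a common sum. Of 16 TCA cycle genes kept, 0 passed, with 1 wholly below and 1 wholly above (6.25% each).

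CG15068, the bomanin gene BomS6 of RefSeq, encodes a small immune peptide of the Toll pathway and was singled out after its values were seen. It had 13712, 16714, 19000, 14263 and 16107 FPKM against 11426, 10645, 8979, 10707 and 12165 FPKM (-0.56), and the groups were separate in restrained heads too (-0.36). Without w1118 replicate 3, its highest library, the difference was -0.49. The list of antimicrobial and immune-induced peptide genes does not hold CG15068. Of its 29 genes kept, 0 passed, with 5 wholly below (17.2%, against 6.63% of all genes), 0 wholly above and a median of -0.08. The metallothionein MtnE, which binds metals, went from 18 ± 1.63 to 12.6 ± 1.45 FPKM (-0.50). In restrained heads its groups overlapped (-0.34), and with 1 library left out the difference ranged from -0.56 to -0.46, the latter under 1.4-fold.

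Ribosomal protein genes leaned lower together. Of 86 kept, 37 lay wholly below at any size of difference (43.0%, against 6.63% of all genes) and 0 wholly above. The median was -0.08, and lay between -0.08 and -0.02 under the other scalings. RpL38, on 2R 20.4 Mb from Atf-2, alone passed at 1.4-fold. It had 1644, 1853, 1979, 1660 and 1757 FPKM against 1300, 1240, 1183, 1176 and 1285 FPKM (-0.52), and -0.38 in restrained heads, again without overlap. Of 72 mitochondrial ribosomal protein genes 0 passed, 2 lay wholly below (2.78%) and the median was -0.06.

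Of the 38 gene lists examined, 13 had a member that passed at 1.4-fold, 24 had none and 1 had no gene above the filter. The lists without a passing member included circadian clock genes (15 kept, median -0.01), dosage compensation genes (7, median 0.09), eye pigment genes (20, median -0.03), muscle genes (20, median 0.02), cuticle genes (35, median 0.02) and chemoreceptors (18, median -0.09). Scaled to a common sum, the medians of the clock and eye pigment genes turned to 0.03 and 0.0057.

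Small RNA genes made up most of the genes at least 2-fold lower, 5 of 8, where 1.4% of the 358 small RNA genes kept passed as lower by that rule. snoRNA:Me28S-A982b, a small nucleolar RNA gene on 2R that by its name guides the methylation of 28S rRNA, had 350, 328, 712, 1701 and 1329 FPKM with w1118 fathers. It was listed at 0 in all 5 libraries labelled dATF-2KO, so no fold is given. In restrained heads it was listed at 0 in 2 w1118 libraries and in 4 labelled dATF-2KO. Zeros of this kind also fell within groups, and the RNA shares its locus with 8 other genes.

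snoRNA:Or-aca4 had 69.2, 77.1, 128, 84.1 and 57.5 FPKM against 37.7, 26.3, 49.5, 8.91 and 26.8 FPKM (-1.60). snoRNA:Psi18S-176 had 107, 155, 196, 192 and 203 FPKM against 69.8, 52.0, 50.0, 104 and 99.2 FPKM (-1.20). These 2 passed the 2-fold rule again in restrained heads, at -1.5 and -1.40. Both were instead higher with fathers labelled dATF-2KO than in the authors' mean for w1118, by 1.15 and 0.82, in other body parts after restraint. For snoRNA:Psi18S-176 this held only after restraint of the dATF-2KO fathers. Its body mean was 165 FPKM with restrained and 66.7 FPKM with unrestrained fathers labelled dATF-2KO, against 94.3 FPKM in the w1118 mean after restraint. The body mean of snoRNA:Or-aca4 with unrestrained fathers labelled dATF-2KO was 135 FPKM, against 73.1 FPKM. The snoRNA:Or-aca5 (-1.44) and mir-1001 (-1.69) overlapped between groups in restrained heads, as did the 1 small RNA that was higher, mir-4968 (2.19). CR40677, a 2S rRNA pseudogene in RefSeq on XHet, had 6133, 6477, 8338, 6447 and 6294 FPKM against 3300, 3150, 3013, 3402 and 3676 FPKM (-1.02). Over all 257 structural RNAs kept the median was -0.44, with 13 wholly below (5.06%, against 6.63% of all genes) and 1 wholly above. In restrained heads the median was -0.19.

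The remaining 2 genes at least 2-fold lower were at a trace in heads and abundant in other parts of the body. CG34168 on 2L had 3.28, 1.27, 2.16, 2.06 and 4.94 FPKM against 0.629, 0.938, 0.802, 0.595 and 0.239 FPKM (-1.43). In other parts of the body after restraint it was at 1466 ± 116 FPKM in libraries labelled dATF-2KO and 802 FPKM in the authors' mean for w1118. CR32657, a long noncoding RNA in RefSeq, lies on X at a locus that holds 11 genes. It had 1.01, 2.21, 2.06, 1.35 and 4.23 FPKM in w1118 heads. In heads labelled dATF-2KO it was listed at 0 once and at 0.347 to 0.834 FPKM in the others (-1.38), and it was at 649 ± 71.2 FPKM in the body libraries labelled dATF-2KO. Both were highest in w1118 replicate 5, where the summed level of testis markers was 57.4 FPKM against 14.6 to 27.8 FPKM in the other w1118 libraries. The part of testis RNA in these differences was not tested, and both genes overlapped between groups in restrained heads.

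Over all genes passing at 1.4-fold, those past 2-fold included, the differences with unrestrained fathers mostly held their sign with restrained fathers. Of the 70 genes higher at 1.4-fold, 69 had the same sign in restrained heads and 19 passed again (background 0.331%), with medians of 0.64 and 0.38. Of the 42 lower genes, 42 had the same sign and 15 passed again (background 0.261%), with medians of -0.61 and -0.43. Here too the choice of genes by their size with unrestrained fathers can by itself make the second median smaller. The restrained pair compares the same 2 tables, so a difference in how the tables were made would repeat as well. In other parts of the body after restraint, 12 of the 15 genes at least 2-fold higher were above the filter and 5 of these were at least 2-fold higher, against 6.05% of all genes there. Of the 8 genes at least 2-fold lower, 0 had the same sign there. With unrestrained fathers labelled dATF-2KO, the body means of snoRNA:Psi18S-176 and snoRNA:Or-aca5 lay below the authors' w1118 mean after restraint. Those of the other lower genes lay above it. The body comparison holds the response to restraint together with the genotype of the father.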

How the data were processed

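RNA-seq of sons' heads was used as the authors deposited it, in FPKM from Cufflinks (TopHat, dm3), with each of 4 tables scaled on its own. Processing notes also name CASAVA and Cuffnorm. For versions, annotation and read filters: not given in the sources used here. Kits differ between sources: poly(A) RNA went into a stranded rRNA-depletion kit per the methods, but a DNA kit per the labels. The tables also hold the authors' group means, ratios, p-values and q-values. Of these, only the mean of restrained w1118 other parts was used, and 12 columns of that table whose names show no sample were left out. Loci come from the tables, 1 added to each left end.

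The 10 libraries were compared as log2(FPKM + 0.5) with the median shift subtracted, for genes averaging 1 FPKM or more. A 0 listed in both groups counted as overlap. As genotype and table are the same, differences between tables are described without a test, and SDs cover the spread between pools of 50 flies, which may be technical. Read counts are unknown, so no counting interval is given. Of the genes looked up, 116 of 116 matched 1 RefSeq gene, and 5 rows with a date for a symbol were counted but not named. Members and the 38 lists were chosen with earlier results of these data known. Named were Atf-2, w, TotA, upd3, Mekk1, the 15 largest differences each way at 2-fold, up to 4 members per list and genes within 1 Mb of Atf-2 that passed at 1.4-fold. A further 12 genes, mei-P26 to CG13510, were singled out after their values were seen, as were the genes at the limits, CG43630 and CR32658. Alternatives were other pseudocounts, filters and scalings, and fits leaving out single libraries. Simulated data were used to test the method. Python 3.11.15, pandas 2.3.3 and numpy 2.4.6 were used.

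Promoter sequences were not analysed here. No 2 libraries held the same values, with at most 1 gene above 0 alike.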

Additional observations from a re-analysis of the deposited data

Results flagged for a closer look

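Among the 52 genes named, 104 groups of 5 libraries were examined for a library far from the others, and 8 held one (7.69%), where chance gives about 1 in 20. All 8 were w1118 groups. Replicate 3 was low for fne (34.8 FPKM, others 41.5 to 43.7), scrt (21.3 FPKM, others 25.3 to 26.3) and pros (28.3 FPKM, others 31.6 to 32.3), all of which passed as higher in heads labelled dATF-2KO. The same replicate was high for CR40677 (8338 FPKM, others 6133 to 6477) and Cyp6a2 (26.4 FPKM, others 22.1 to 23.3). Replicate 2 was high for TotA (1199 FPKM, others 896 to 978), replicate 4 for Cyp6a14 (0.612 FPKM, others 0.315 to 0.391) and replicate 1 for CG30269 (24.1 FPKM, others 19.7 to 20.8). For no named gene did the groups separate in opposite directions with unrestrained and restrained fathers.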

How the results depend on the processing

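The shift between the tables was 0.036 when libraries were scaled to a common sum and 0.0040 with quantile normalization, and -0.0078 to -0.0032 with each library left out. At a mean of at least 5 FPKM, 6 genes passed as 2-fold higher and 38 as 1.4-fold higher. Leaving out each library gave 14 to 19 and 7 to 16 genes at 2-fold (higher, lower) and 61 to 83 and 41 to 53 at 1.4-fold. The number 2-fold lower was 14 without w1118 replicate 1 or dATF-2KO replicate 1, 16 without w1118 replicate 2 and 15 without dATF-2KO replicate 5, each including all 8. Of alternatives added after seeing the data, leaving out small RNAs gave 3 lower genes at 2-fold, and genes alone at their locus numbered 8 and 2 at 2-fold and 29 and 22 at 1.4-fold. Not counting a shared 0 as overlap gave 52 higher genes at 2-fold and 108 at 1.4-fold. In that setting the subtracted shift of -0.0046 placed a 0 labelled dATF-2KO just above a 0 of w1118. Genes with a 0 in both groups could thus pass as higher by the calculation alone. The causes of the other changes were not tested. Other counts stayed within 1.5 times. Of 936 differences of the 52 named genes over 18 settings, 909 moved by less than 1 SD, 27 moved further and 0 of those that passed changed sign. With a pseudocount of 0.1 the difference of Cyp6d2 was 3.41 and with 1 it was 1.43. No paired analysis was possible because no label ties same-numbered libraries of the tables to a shared cross or day, and they did not deviate together (correlations of -0.05 to 0.09). Depth is given relative to 1 library only, and low values such as those of lmgB are the least precise.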
